A study of Mus musculus with 4 samples.

Results

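The nuclear pore and transport genes of mouse were followed in 4 RNA-seq libraries from Schwann cells that lack a working Nf2 gene. Members were chosen by gene symbol: nucleoporins (Nup and a number, with Tpr, Rae1, Ranbp2, Seh1l, Aaas and Pom121), importins (Ipo, Kpna and Kpnb genes), exportins (Xpo and a number), Ran and Rangap1. The rule found 48 genes among the 35604 rows of each deposited table. Of these, 47 had a usable row (status OK) in culture and 47 in the tumours, and 44 in each reached 1 FPKM in at least one library of the table and count here as measured. The set was picked because Nup genes were lower with treatment in both tables, so their direction chose them. All differences below are descriptions, with no test.

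ESC-FC1801 is a line of embryonic mouse Schwann cells of FVB/N background, homozygous for floxed Nf2, in which Nf2 was deleted in vitro with Cre from an adenovirus. All 4 groups carry this deletion. NXD30001 inhibits the chaperone HSP90. Cultured cells received DMSO for 24 h or 1 µM NXD30001 for 24 h. Mice bearing an ESC-FC1801 tumour received vehicle or 100 mg/kg NXD30001 on the same schedule, 3 times a week for 4 weeks, with the age of the mice not given in the labels. Each group is 1 library, so no value has a replicate error, and a comparison of 2 libraries is not one of conditions. A tumour sample can also hold cells of the host mouse. One label field describes every sample as cultured cells, but the titles and treatments place a pair of them in tumours.

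The nuclear pore is a ring-shaped channel through the nuclear envelope, built from many copies of a set of proteins called nucleoporins. Outer and inner ring proteins form its scaffold, membrane proteins anchor it, proteins rich in phenylalanine-glycine repeats fill the channel, and filaments and a basket face the cytoplasm and the nucleus. Importins and exportins carry cargo through the channel, and the GTPase Ran, in its GTP form in the nucleus and its GDP form in the cytoplasm, sets the direction of transport. In animal cells pores are taken apart in mitosis and rebuilt in each daughter nucleus, and some nucleoporins sit on kinetochores during division.

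Levels are FPKM, fragments counted per length of transcript and scaled to the mapped fragments of a library, which allows levels of different genes to be set side by side within a table. A difference is log2(FPKM + 1) in the treated library less its value in the untreated one, a scale that understates changes of low genes. The error of a gene's ratio was taken from the authors' deposited table, as their natural log fold divided by their test statistic. This implied error had a median over the measured members of 0.70 (log2) in culture and 0.30 in the tumours. It covers no spread between cultures or animals. It belongs to the plain log2 ratio without a pseudocount, which is larger than the difference for low genes, so the difference divided by it is not the authors' statistic. The 2 tables were scaled separately, and no level of one was set against the other.

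Marker genes of several cell types differed between the tumours. All 11 measured Schwann cell markers were higher in the treated tumour, with summed levels of 252 FPKM with vehicle and 780 FPKM with NXD30001, and S100b, a defining marker, was under 1 FPKM in all 4 libraries. In culture 8 of the 11 measured Schwann markers were lower with treatment, although their sum, led by few genes, was 899 FPKM with DMSO and 3398 FPKM with NXD30001. All 6 endothelial markers were lower (summed 66.3 and 23.3 FPKM), and so were all 6 measured macrophage markers (326 and 186 FPKM). Of the 4 T cell markers, Cd3e, Cd2 and Cd8a were listed at 0 in both tumours. The 4 fibroblast markers summed to 2073 and 1437 FPKM in the tumours, and 3 of them were below 0. Col1a1 (1576 and 1155 FPKM), which made up most of these sums, was called lower in the authors' deposited table, while Lum was at 10.6 and 10.8 FPKM. Only Fabp4 of the 3 adipocyte markers was measured, at 65.8 and 12.5 FPKM, and it was called lower as well. Adipoq (0.818 and 0.228 FPKM) and Plin1 (0 and 0.0995 FPKM) stayed under 1 FPKM and went opposite ways. Of the 4 neuron markers, Nefl (1.70 and 26.8 FPKM) and Nefm (8.49 and 25.7 FPKM) were called higher in that table. Tubb3 went the other way without a call (11.4 and 8.82 FPKM), and Snap25 was listed at 0 in both tumours. The 4 globin genes summed to 314 FPKM with vehicle and 0.378 FPKM with NXD30001. In culture the same endothelial and macrophage lists summed to between 0.0575 and 2.55 FPKM. In a bulk sample, fewer cells of a type and less RNA per cell cannot be told apart, and what these shifts contribute to the tumour values below was not tested.

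In culture, pore and transport genes leaned lower in treated cells. The median was -0.72 for the nucleoporins and -0.44 for the transport factors (importins, exportins, Ran and Rangap1). Lower Nup genes led to the choice of the set, which favoured this lean, this gap and the counts below 0 of the Nup groups given later. None of these is an independent result. Of the 44 measured members, 34 were below 0, where 59.4% of the 12676 genes compared were, and 17 were at least 2-fold lower, where 24.8% of all genes were. A single member, Ranbp2, was at least 2-fold higher, against 12.6% of all genes. The median difference was -0.59 for the members and -0.25 for all genes. Members were more abundant than the average gene, with a median DMSO level of 28.6 FPKM against 11.5 FPKM. Among genes at 5 FPKM or more, 16 of 43 members were at least 2-fold lower (37.2%, all genes 25.5%) and 33 below 0 (76.7%, all genes 58.3%). This cut does not match members and other genes by level, and the part of level in the lean was not tested. After subtracting the median of all genes, 11 members were at least 2-fold lower (all genes 18.4%), 1 was higher (17.8%) and 28 lay below 0 (50%).

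The authors' deposited table called 4 members lower in culture, Nup210, Aaas, Nup160 and Nup43, or 9.09% of those measured, where it called 7.14% of all genes. No member was called higher (2.75% of all genes). At an unadjusted p under 0.05 in that table, 10 members were lower (17.3% of all genes) and 0 higher (7.59%). By the authors' own comparison the members thus lay close to the background. Their lean, favoured by the choice of the set, shows in the many moderate differences more than in the calls. Beside it, all 20 proliferation markers were lower in treated culture, with a median difference of -3.99 and summed levels of 2732 FPKM with DMSO and 199.7 FPKM with NXD30001. The part of these markers in the lower pore genes was not tested.

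In the tumours the differences were small, and the direction of the Nup genes was again part of the choice of the set. Of the 44 measured members, 30 were below 0, where 52.7% of 15550 compared genes were, with a median of -0.19 against -0.03 for all genes. Only Nup210 was at least 2-fold lower (all genes 6.93%) and only Kpna2 at least 2-fold higher (7.32%), so 42 of 44 stayed within 2-fold. The authors' deposited table called Nup210 and Ipo8 lower (2.45% of all genes) and Kpna2 higher (3.14%). At an unadjusted p under 0.05 in that table, 3 members were lower (8.66% of all genes), namely Nup210, Ipo8 and Kpna3, and 4 were higher (9.33%), namely Kpna2, Nup214, Ipo4 and Nup62. Among genes at 5 FPKM or more, 0 of 43 members were at least 2-fold lower (5.49% of all genes) and 29 lay below 0 (53.1%). The 20 proliferation markers had a median of 0.02 in the tumours, and their summed levels were 743 and 779.9 FPKM.

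**Figure D1:**
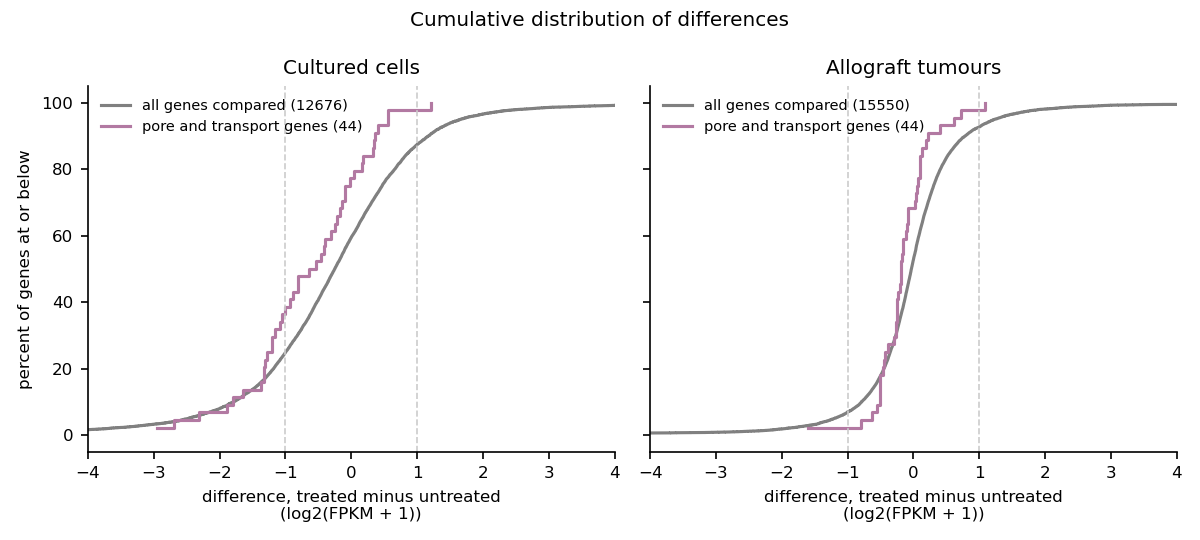
Percent of genes (vertical axis) at or below each difference between the treated and the untreated library (horizontal axis, log2(FPKM + 1)), for all genes compared and for the 44 measured pore and transport genes, in culture (left) and tumours (right). Dashed lines mark 2-fold. In culture the line of the members lies to the left of that of all genes over most of the range, with medians of -0.59 and -0.25, while in the tumours the members are packed between -1 and 1 except for Nup210 and Kpna2.

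The level of each measured member by role is plotted below for all 4 libraries. With DMSO the highest were Tpr (1348 FPKM), Kpnb1 (333 FPKM) and Nup88 (284 FPKM), and the lowest measured was Nup210 (4.78 FPKM). In the vehicle tumour the highest were Ran (546 FPKM), Kpnb1 (221 FPKM) and Ipo4 (211 FPKM), and Nup210 was again the lowest, at 2.73 FPKM. At the 1 FPKM limit, Nup210 and Pom121 lay nearest above it in culture and Nup210 and Xpo7 in the tumours. Nup210l, a relative of Nup210, was the nearest below it, at 0.113 and 0.0487 FPKM in culture, far from the limit, and 0.817 and 0.80 FPKM in the tumours. Kpna7, an importin alpha of egg and early embryo, and Nup62cl were listed at 0 in all 4 libraries. Nup62 in culture and Tpr in the tumours had failed estimates and were not used there.

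**Figure D2:**
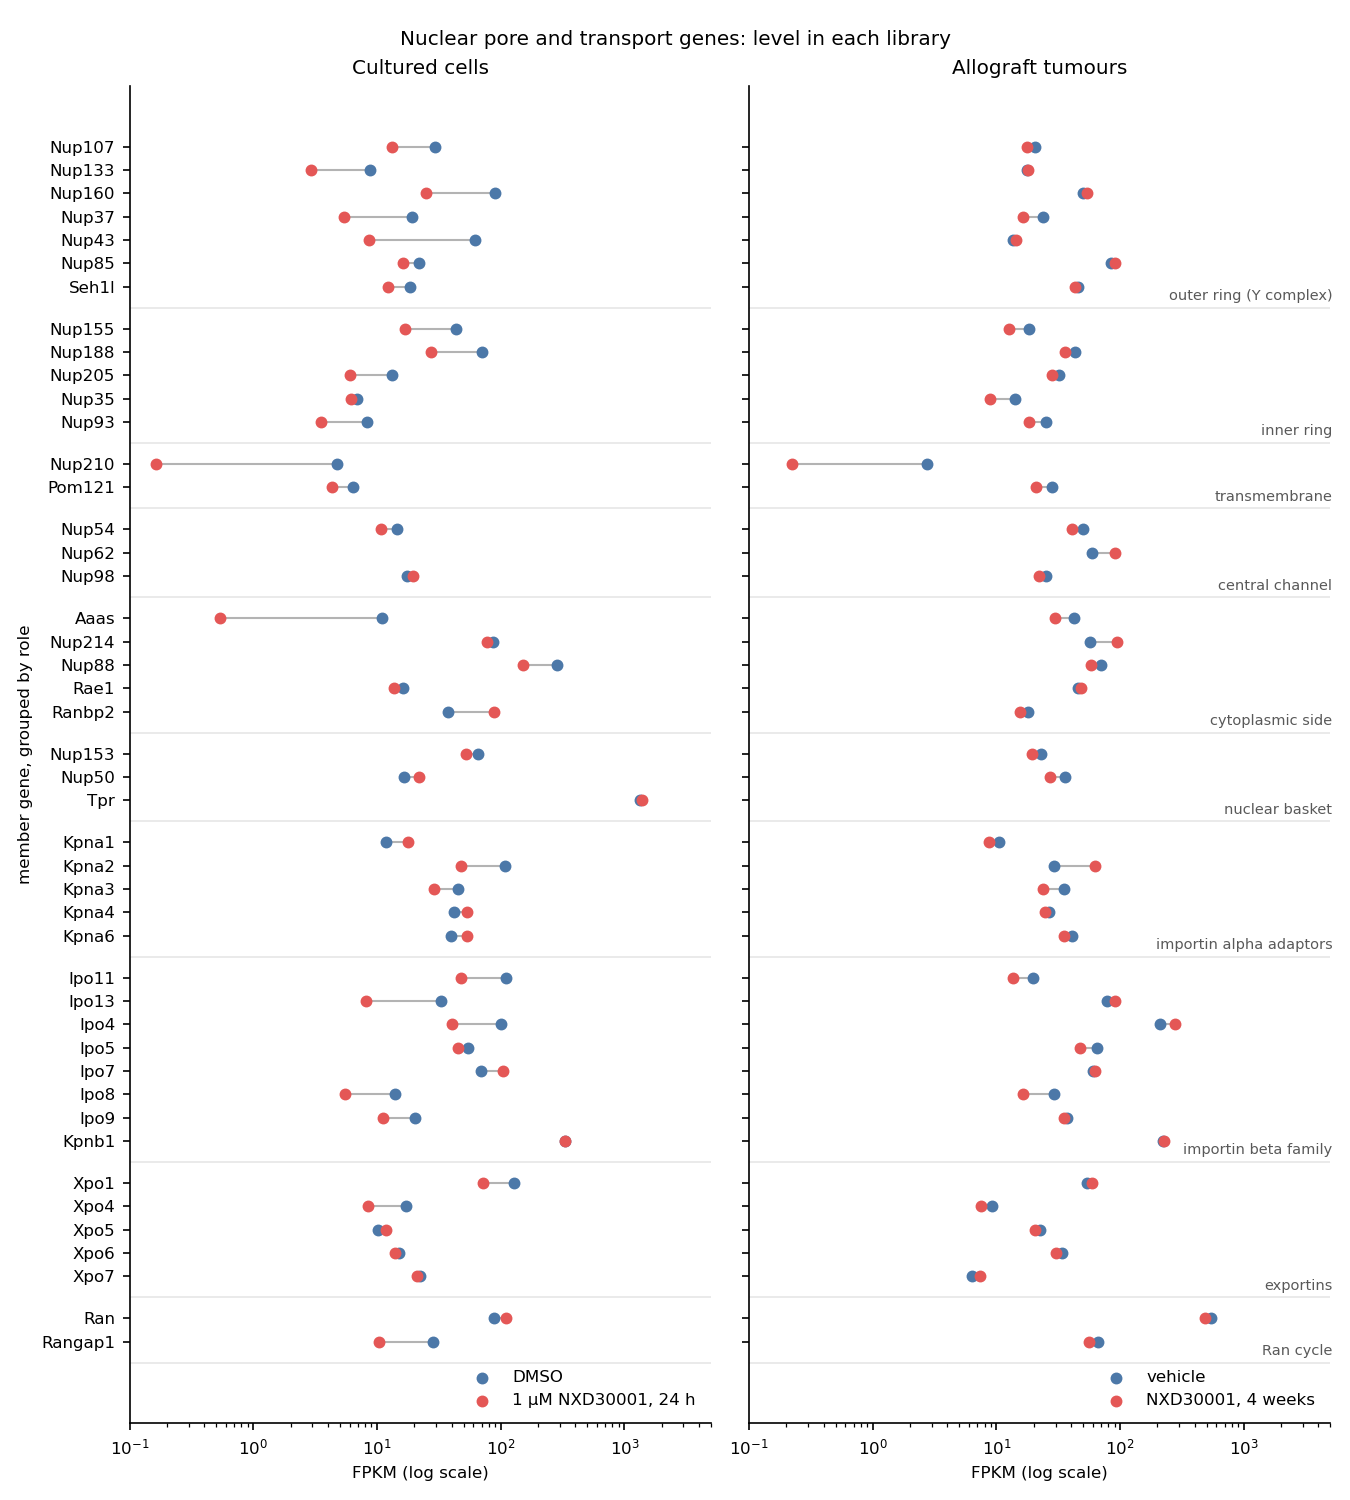
FPKM on a log scale (horizontal axis) of each measured member (vertical axis, grouped by role, role names at the right) in cultured cells (left) and tumours (right). Blue points are the DMSO or vehicle library, red points the NXD30001 library, 1 library each, and a member without points in a panel was not measured there. Red points lie left of blue ones for all outer ring and inner ring genes in culture, and Nup210 shows the widest gap in both panels.

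The outer ring, or Y complex, is the scaffold unit that coats both faces of the pore and that is also found on kinetochores in mitosis. All 7 of its member genes were lower in treated culture (all genes 59.4%), 5 of them by at least 2-fold (24.8%), with a median of -1.31. Their levels summed to 248 FPKM in DMSO cells and 83.8 FPKM in treated cells. Nup160 (chromosome 2 from 90517372 to 90576485, mm9), one of the large scaffold subunits, measured 89.3 FPKM in DMSO cells and 25.02 FPKM in treated cells (difference -1.80, implied error 0.51), with a q of 0.012 in the authors' deposited table. Nup43 (chromosome 10 from 7387342 to 7398675), a small propeller-shaped subunit, measured 61.7 and 8.65 FPKM (difference -2.70, implied error 0.87), with a q of 0.0314 in the authors' deposited table. Those were the most abundant outer ring genes with DMSO and both were called, where 7.14% of all genes were called lower.

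The remaining outer ring genes differed less or with larger errors. Nup37, the partner of Nup160, was at 19.1 and 5.40 FPKM (-1.65, implied error 0.95), at a locus shared with a small RNA row. Nup133, which can sense membrane curvature, was at 8.74 and 2.92 FPKM (-1.31, implied error 0.88), and Nup107, its direct partner, at 29.1 and 13.2 FPKM (-1.08, implied error 0.79). Nup85 and Seh1l, which bind each other, differed by -0.41 and -0.54, both less than their implied errors. After centring on all genes, all 7 still lay below 0.

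In the tumours the outer ring was flat. Its 7 genes summed to 256 FPKM with vehicle and 254 FPKM with NXD30001, and the differences ran from -0.50 (Nup37) to 0.10 (Nup160). Nup43 was at 13.5 and 14.3 FPKM and Nup160 at 50.3 and 53.98 FPKM, so neither culture call had a counterpart there. The most abundant gene was now Nup85, at 84.5 and 90.5 FPKM. Sec13, which serves both the Y complex and the COPII coat of vesicles leaving the endoplasmic reticulum, is no member by the rule. In culture it measured 11.6 FPKM in DMSO cells and 55.2 FPKM in treated cells (difference 2.16, implied error 0.73), and the authors' deposited table called it higher. It thus went the opposite way to all 7 member genes of the complex. In the tumours Sec13 measured 106.4 and 90.8 FPKM.

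**Figure D3:**
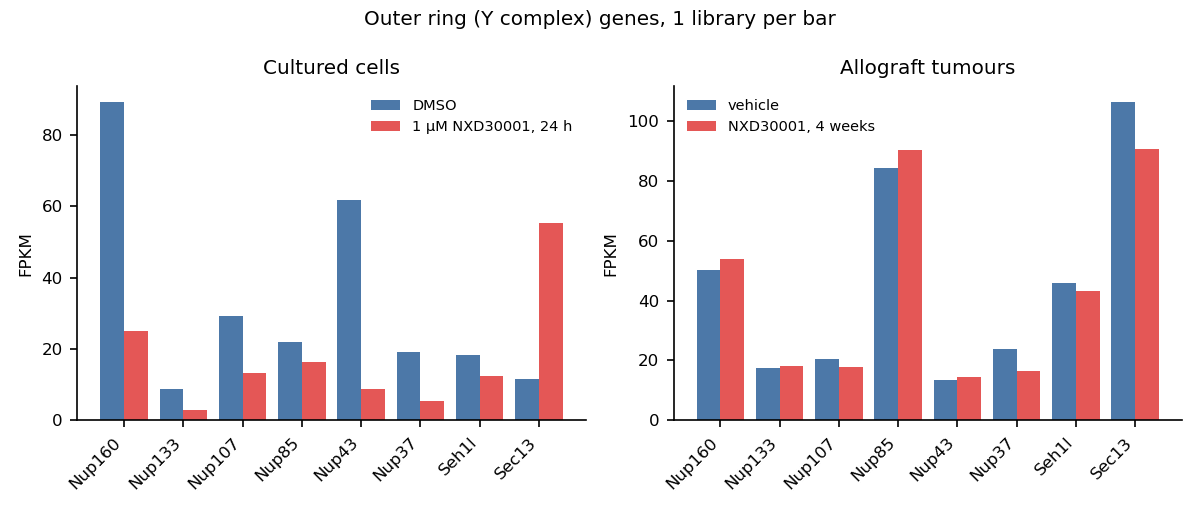
FPKM (vertical axis) of the 7 outer ring members and of Sec13 in culture (left) and tumours (right). Blue bars are DMSO or vehicle and red bars NXD30001, 1 library per bar. In culture the red bars are shorter for the 7 members and taller for Sec13 (55.2 against 11.6 FPKM), and in the tumours the 7 members sum to 256 and 254 FPKM.

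The inner ring links the outer rings to the membrane and holds the channel proteins in place. Its 5 genes were all lower in treated culture (all genes 59.4%), 4 of them by at least 2-fold (24.8%), with a median of -1.05 and none called. After centring on all genes 4 of the 5 lay below 0 (50%), but Nup93 (-0.80) and Nup205 (-0.76) were then under 2-fold. Nup188 was at 70.2 and 27.3 FPKM (-1.33, implied error 0.59), but its locus is given for 5 other rows as well, among them Lrrc8a and Dolk. Nup155, a membrane-binding subunit, was at 43.5 and 16.8 FPKM (-1.33, implied error 0.72). The organising subunit Nup93 was at 8.34 and 3.50 FPKM (-1.05, implied error 0.70), and Nup205, the paralogue of Nup188, at 13.2 and 6.09 FPKM (-1.01, implied error 0.79). Nup35 was at 6.90 and 6.17 FPKM. The loci of Nup205 and Nup35 are also given for other rows.

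The inner ring was also the scaffold group with a small common shift in the tumours. All 5 genes lay below 0 (30 of the 44 members, 52.7% of all genes), from -0.19 (Nup205) to -0.63 (Nup35), with a median of -0.45 and no call. Nup genes lower in both tables were the reason for picking the set, so this shared direction is no independent result. Nup35 was at 14.2 and 8.83 FPKM with an implied error of 0.41, Nup155 at 18.2 and 12.6 FPKM with an error of 0.31, and Nup93 at 25.3 and 18.3 FPKM with an error of 0.32. Every one of these differences was under 2 times its implied error.

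Among the membrane nucleoporins, Nup210 was the single member at least 2-fold lower in both tables (1 of 43 members measured in both, where 1.52% of 11559 genes were). Nup210, or gp210, spans the nuclear membrane with most of its length in the lumen, and its level is known to vary between cell types, unlike that of scaffold nucleoporins. The gene (ENSMUSG00000030091, chromosome 6 from 90963062 to 91066823, mm9) measured 4.78 FPKM in DMSO cells and 0.164 FPKM in treated cells, 29.2 times lower by the ratio of levels. The difference was -2.31 and the plain log2 ratio -4.87 (implied error of the ratio 1.06), with a q of 0.000314 in the authors' deposited table. In the tumours it was at 2.73 and 0.223 FPKM, 12.2 times lower (difference -1.61, plain log2 ratio -3.61 with an implied error of 1.06), with a q of 0.0281 in the authors' deposited table. Both treated libraries thus lay under 1 FPKM. Of all genes compared, 5.91% in culture and 2.84% in the tumours had a still lower difference. With a pseudocount of 5 FPKM the differences were -0.92 and -0.57, under 2-fold, since the levels themselves are low. Beside the tumour value, the endothelial markers summed to 66.3 and 23.3 FPKM and the macrophage markers to 326 and 186 FPKM, and their part in it was not tested. In culture neither list summed to more than 2.55 FPKM in a library.

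Because Nup210 had this shared direction, and Kpna2 opposite directions (below), the 250 bases before their transcription starts are printed, 5′ to 3′ on the strand of the gene, from RefSeq (GRCm38.p6). Nup210 lies on the minus strand with this stretch at chr6:91116827-91117076, and Kpna2 on the minus strand at chr11:106999526-106999775. Kpna2 was added here after its values were seen. Capitals mark matches, on either strand, to the letters TTTGAA (the CHR element of cell cycle genes), TTCGCGC or TTGGCGC (a core of E2F sites), GCATGCG (a core of NRF1 sites) or CCAAT (the CCAAT box).
Nup210: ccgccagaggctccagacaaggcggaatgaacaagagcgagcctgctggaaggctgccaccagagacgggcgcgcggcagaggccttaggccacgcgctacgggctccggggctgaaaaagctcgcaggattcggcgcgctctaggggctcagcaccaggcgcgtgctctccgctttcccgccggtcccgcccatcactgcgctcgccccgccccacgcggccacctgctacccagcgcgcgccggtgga
Kpna2: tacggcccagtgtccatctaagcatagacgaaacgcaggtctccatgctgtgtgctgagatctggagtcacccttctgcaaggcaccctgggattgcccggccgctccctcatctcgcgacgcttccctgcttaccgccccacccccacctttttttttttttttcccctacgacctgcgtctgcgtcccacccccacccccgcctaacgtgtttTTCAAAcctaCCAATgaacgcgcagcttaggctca
The Nup210 stretch held none of these letters. That of Kpna2 held TTCAAA, the reverse complement of TTTGAA, from -35 to -30, followed by CCAAT from -25 to -21, counted back from the base before the start.

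Promoter stretches were found for 38 of the 48 members by symbol, 43 stretches in all, as some genes have more than 1 start. CCAAT stood in 21 of these 43 (48.8%), against 33.8% of 32851 stretches of the same length over all genes, and TTTGAA in 9 (20.9%, all 16%). GCATGCG was in 5 (11.6%, all 3.02%), those of Nup107, Nup50, Nup62, Ran and Xpo5, and an E2F core in 1 (2.33%, all 3.14%), that of Ipo7. TTTGAA and CCAAT occurred together in 6 (14%, all 5.55%), in Kpna2, Kpna7, both of Nup37, Nup98 and Tpr, a combination counted after the Kpna2 stretch was seen. Of the 18 stretches of members at least 2-fold lower in culture, 4 held TTTGAA (22.2%), and of the 22 of other measured members 4 did (18.2%). Both stretches of Nup37 are among the former, and counted by gene the order was reversed. By gene, 3 of 16 lower members held it (18.8%) and 4 of 19 others (21.1%), against 18.3% of all genes. The other letters were less frequent in the stretches of the lower members, with CCAAT at 38.9% against 50%, GCATGCG at 5.56% against 13.6% and an E2F core at 0% against 4.55%. A match describes letters only, and no promoter activity was measured.

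The other membrane nucleoporins were also lower in culture. Pom121, which takes part in building new pores, was at 6.35 and 4.33 FPKM (-0.46, implied error 0.80) and, in the tumours, at 28.2 and 20.7 FPKM (-0.43, implied error 0.28). Its locus is shared with Nsun5. Tmem48, the symbol used in the tables for Ndc1, is no member by the rule. It was at 20.0 and 3.61 FPKM in culture (difference -2.18, implied error 0.62), called lower in the authors' deposited table. Its tumour levels were 24.8 and 23.8 FPKM.

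On the cytoplasmic side the genes went apart in culture. Aaas encodes ALADIN, which is held at the pore by Ndc1 and is mutated in triple A syndrome. It measured 10.96 FPKM in DMSO cells and 0.541 FPKM in treated cells (difference -2.96, plain log2 ratio -4.34 with an implied error of 1.07), with a q of 0.00262 in the authors' deposited table, the lowest difference among the 44 members. In the tumours Aaas was at 42.7 and 29.6 FPKM (-0.51, implied error 0.33). Ranbp2, the giant filament protein that binds Ran and SUMO-modified Rangap1, was the highest, at 37.4 and 88.2 FPKM (1.22, implied error 0.70), without a call. In the tumours it was at 18.0 and 15.6 FPKM.

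Nup88 and Nup214, which form a complex that receives the exportin Xpo1, had loci shared with other genes. In culture Nup88 was at 284 and 153 FPKM (-0.89, implied error 0.42) and Nup214 at 86.4 and 76.9 FPKM (-0.17, implied error 0.49). In the tumours Nup214 was at 57.1 and 94.9 FPKM (0.72, implied error 0.33) while Nup88 was at 70.0 and 58.0 FPKM (-0.27, implied error 0.20). The level of Nup88 relative to Nup214 was thus lower with treatment in both tables, at 3.29 and 1.98 in culture and 1.22 and 0.611 in the tumours. Rae1, an mRNA export factor that binds Nup98, differed by -0.21 and 0.10.

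The measured channel and basket genes all lay within 2-fold in culture. Nup98, which carries phenylalanine-glycine repeats, was at 17.4 and 19.5 FPKM and Nup54, of the central channel, at 14.6 and 10.7 FPKM. Of the basket genes, Nup153 was at 65.6 and 52.6 FPKM, Nup50 at 16.6 and 21.7 FPKM and Tpr at 1348 and 1390 FPKM. The Tpr level, more than that of any other member, belongs to a locus shared with Prg4 and another gene, so its reads are not assigned with certainty. In the tumours Nup62, the main channel protein, was at 59.0 and 91.1 FPKM (0.62, implied error 0.31), at a locus shared with Atf5 and Il4i1, and the other channel and basket genes lay between -0.18 and -0.38.

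The importin alpha proteins are adaptors that bind the classical nuclear localisation signal and ride on importin beta. Kpna2, the form known to be abundant in proliferating cells, went in opposite directions in the 2 tables. The gene (ENSMUSG00000018362, chromosome 11 from 106849943 to 106860855, mm9) measured 109 FPKM in DMSO cells and 48.0 FPKM in treated cells (difference -1.16, implied error 0.64), with no call, and after centring on all genes the difference was -0.91. In the tumours it measured 29.0 FPKM in the vehicle and 63.0 FPKM in the treated tumour (difference 1.09, implied error 0.29), with a q of 0.00771 in the authors' deposited table. Among 11559 genes measured in both tables, 1.67% were likewise at least 2-fold lower in culture and 2-fold higher in the tumours. Beside this, 18 of 20 proliferation markers were at least 2-fold lower in culture and 0 of 20 were 2-fold different in the tumours, and their part in the Kpna2 values was not tested.

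The makeup of the importin alpha pool shifted with Kpna2. In culture Kpna2 made up 43.9% of the summed FPKM of the 5 expressed genes with DMSO and 23.8% with NXD30001, when Kpna4 (26.7%) and Kpna6 (26.4%) were slightly above it. In the tumours its part was 20.4% with vehicle, behind Kpna6 (28.7%) and Kpna3 (24.9%), and 40.5% with NXD30001, the highest of the 5. The sums themselves were 248 and 201 FPKM in culture and 142 and 156 FPKM in the tumours. Kpna1, Kpna4 and Kpna6 were above 0 in culture (0.34 to 0.55) and below 0 in the tumours (-0.08 to -0.23), each within its implied error. Kpna3 was the only one below 0 in both, at 45.4 and 28.8 FPKM in culture (-0.64, implied error 0.72) and 35.3 and 23.7 FPKM in the tumours (-0.56, implied error 0.27).

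**Figure D4:**
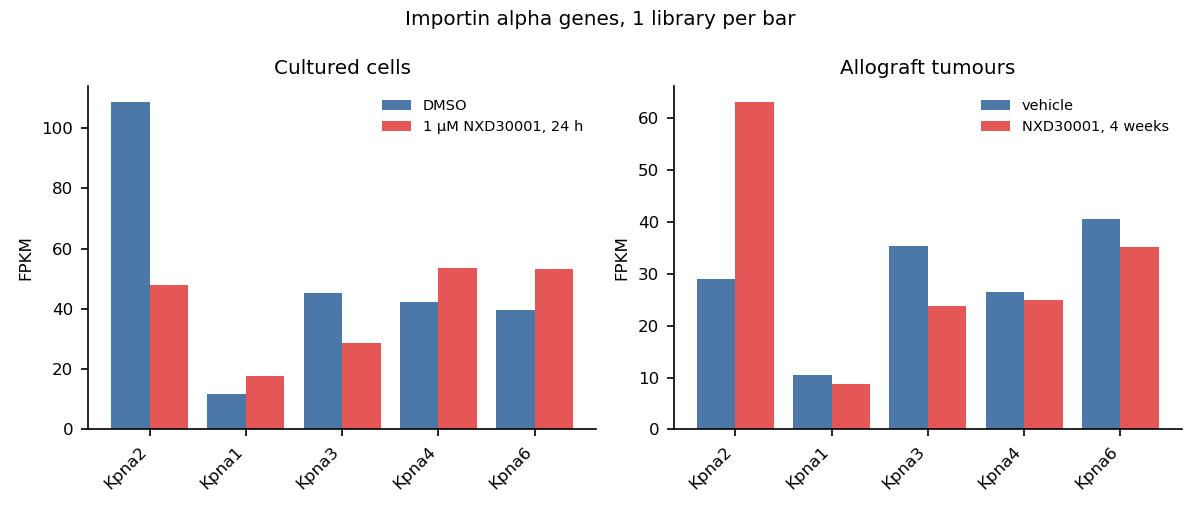
FPKM (vertical axis) of the 5 expressed importin alpha genes in culture (left) and tumours (right). Blue bars are DMSO or vehicle and red bars NXD30001, 1 library per bar. Kpna2 has the tallest blue bar in culture (109 FPKM) and the tallest red bar in the tumours (63.0 FPKM).

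Of the importin beta family, which bind Ran and the channel directly, 7 of 8 were below 0 in culture (all genes 59.4%). In the family 4 were at least 2-fold lower (all genes 24.8%), with a median of -1.002 and none called. After centring on all genes the median was -0.75 and 6 of the 8 lay below 0 (50%). Kpnb1, importin beta itself and partner of the importin alphas, was at 333 and 330 FPKM in culture and 221 and 224 FPKM in the tumours, at a locus shared with another row and with an implied error of 1.73 in culture. It was the most abundant carrier of the family in all libraries but the treated tumour, where Ipo4 was higher. Ipo13, which works as both importer and exporter, was at 32.6 and 8.07 FPKM in culture (-1.89, implied error 0.72, q 0.101 in the authors' deposited table) and 77.7 and 90.5 FPKM in the tumours. Ipo4, a carrier of histones, was at 99.7 and 40.5 FPKM in culture (-1.28, implied error 0.62) and 211 and 279.3 FPKM in the tumours (0.40, implied error 0.19), at a locus shared with Tm9sf1. Ipo11, a carrier of ubiquitin-conjugating enzymes, was at 111 and 47.5 FPKM in culture (-1.21, implied error 0.56) and 19.9 and 13.7 FPKM in the tumours.

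Ipo8, which imports SMAD and Argonaute proteins among others, was lower in both tables. In culture it measured 13.9 and 5.49 FPKM (difference -1.20, implied error 0.55), with no call. In the tumours it measured 29.0 and 16.3 FPKM (difference -0.79, implied error 0.25), with a q of 0.0338 in the authors' deposited table. Its closest relative Ipo7 had no such pattern, at 69.8 and 103.7 FPKM in culture (0.57, implied error 0.70) and 60.4 and 62.8 FPKM in the tumours. Ipo5 and Ipo9 differed by -0.25 and -0.80 in culture and by -0.46 and -0.09 in the tumours.

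No exportin reached 2-fold on the log2(FPKM + 1) scale in either table. Xpo1, or CRM1, exports proteins with a leucine-rich signal and was the most abundant, at 127 and 72.0 FPKM in culture (-0.81, implied error 0.49) and 54.3 and 59.4 FPKM in the tumours. Xpo4 was at 17.0 and 8.46 FPKM in culture (-0.93, implied error 0.79), a plain ratio of 2.01 that falls inside 2-fold only through the pseudocount. Xpo5, which exports precursor microRNAs, differed by 0.19 and -0.11, and Xpo6, an actin exporter, and Xpo7 by at most 0.19 in either direction.

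In the Ran cycle, Ran was at 88.2 and 110.7 FPKM in culture and 546 and 488 FPKM in the tumours. Rangap1, which switches Ran off in the cytoplasm, was at 28.2 and 10.3 FPKM in culture (-1.37, implied error 0.80) and 66.4 and 55.7 FPKM in the tumours. The level of Ran relative to Rangap1 was 3.13 with DMSO and 10.7 with NXD30001, and 8.23 and 8.76 in the tumours.

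Set side by side, 22 of the 43 members measured in both tables were below 0 in both, where 31.6% of 11559 genes were, and 1 (Ipo7) was above 0 in both (19.4%). Of the rest, 12 were below 0 in culture and above 0 in the tumours (27.5% of all genes) and 8 the reverse (21.5%). The set was picked because Nup genes were lower in both tables. That choice favoured the count below 0 in both, so its excess over all genes is no independent result. Across these 43 genes, which share libraries and are not independent, Pearson's r of the differences was 0.17 and Spearman's rho 0.15. Without Nup210 they were 0.02 and 0.09, and over all 11559 genes 0.02 and 0.01. The size of a member's difference in culture thus gave little guide to its size in the tumours.

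**Figure D5:**
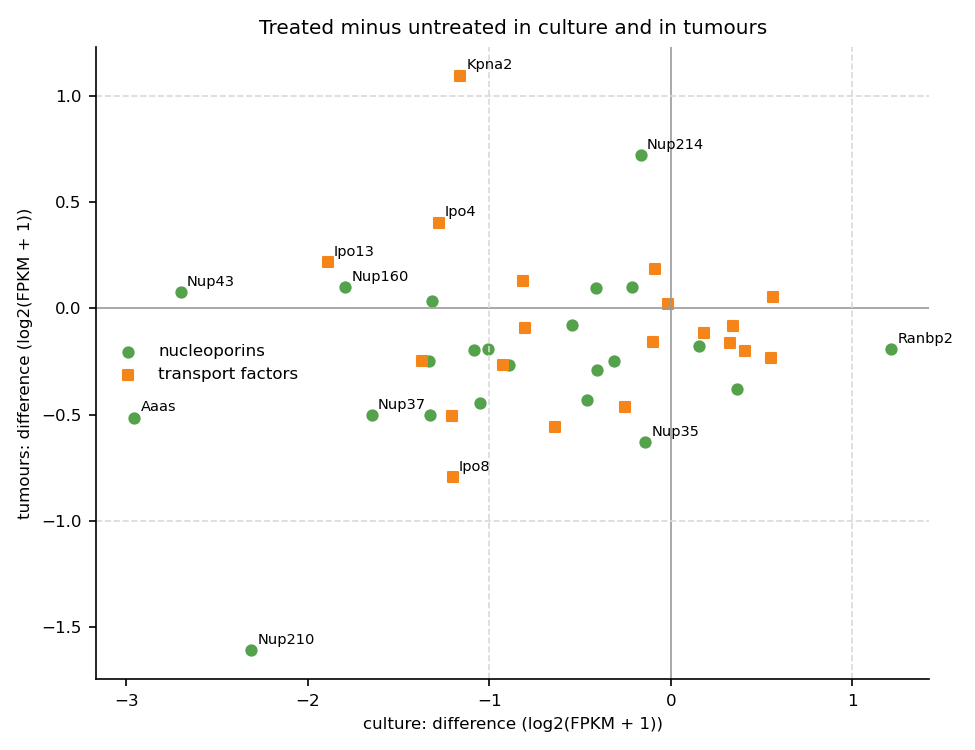
Difference in culture (horizontal axis) against difference in tumours (vertical axis), both treated minus untreated in log2(FPKM + 1), for the 43 members measured in both tables. Green circles are nucleoporins, orange squares transport factors, dashed lines mark 2-fold, and names are given for members far from the centre. Nup210 (-2.31, -1.61) lies alone at the lower left and Kpna2 (-1.16, 1.09) alone at the upper left.

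Genes of the same machinery outside the symbol rule also lay mostly below 0 in culture. Of 22 further pore and transport genes measured in culture, 18 were below 0 (all genes 59.4%), with a median of -0.55, but only 4 were at least 2-fold lower, a smaller share than the 24.8% of all genes, and 1, Sec13, was at least 2-fold higher (12.6%). Cse1l, the exportin that returns importin alpha to the cytoplasm, was at 85.6 and 34.7 FPKM (-1.28, implied error 0.50) and 42.6 and 33.2 FPKM in the tumours. Rangrf, at a shared locus, was at 5.96 and 0.153 FPKM in culture with an implied error of 2.61. In the tumours 18 of 26 were below 0 (all genes 52.7%), with a median of -0.11, and Rangrf alone was past 2-fold (38.4 and 16.6 FPKM). Next were Ddx19b (4.11 and 6.98 FPKM), Ranbp1 (66.1 and 102.7 FPKM) and Senp1 (15.6 and 9.76 FPKM), all at shared loci and uncalled.

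Nuclear envelope and lamina genes (13 measured in culture) had a median of -0.63 there, with 9 below 0 (all genes 59.4%) and 2 at least 2-fold lower, a smaller share than the 24.8% of all genes. Lmnb1, lamin B1, was at 14.6 and 3.63 FPKM (-1.75, implied error 0.75) and Lbr, the lamin B receptor, at 11.8 and 3.04 FPKM (-1.67, implied error 0.92), the latter at a shared locus. In the tumours the median over 14 genes was 0.04, and the authors' deposited table called Lmna, lamin A/C, higher at 477 and 750 FPKM, and Tor1aip1, at a shared locus, at 18.3 and 50.1 FPKM. Of the mRNA export factors, which use the same pore, 9 of 12 were above 0 in culture (all genes 40.6%) and 3 at least 2-fold higher (12.6%), with a median of 0.45 and none called. Thoc4, which couples splicing to export, was at 10.5 and 28.9 FPKM (1.38, implied error 0.66), Thoc3 at 8.62 and 19.6 FPKM (1.10, implied error 0.80) and Thoc2 at 240 and 541 FPKM (1.17, implied error 1.19), the last at a shared locus. In the tumours their median was -0.15, and none of the 12 was past 2-fold.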

How the data were processed

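RNA-seq libraries (Illumina protocol, per the labels' protocols) were made into 2 tables, 1 for culture and 1 for tumours. Per the submitters' processing notes, the tools were TopHat 1.2.0, Cufflinks 1.0.2, Cuffdiff and CASAVA, with the build mm9. Levels are FPKM as deposited by the authors. Beside these, per the file headers, each row has the fold as a natural log, a test statistic and q-values (used as scores, since uncalled q-values reach 2.05) and p-values of their own comparison of 2 libraries. No counts are given, so depth enters only through the implied error.

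Groups came from the treatment labels, which put 2 samples in tumours although their sample type says cultured cells. Rows with status FAIL or LOWDATA were left out, and a gene was compared if either of its libraries reached 1 FPKM, giving 12676 genes for culture and 15550 for tumours. Differences, counts and medians were computed in Python 3.11.15 with pandas 2.3.3, tested on simulated data. With 1 library per group no test was run. Members and lists were chosen with earlier results of these data known. Members were named if 2-fold changed or called in either table, most abundant in their role, nearest to 1 FPKM or most extreme, and other members by their range or where they complete a role. Loci are those of the tables, with 1 added to the start, since end minus start equalled the GENCODE length in 10580 of 19955 single-gene loci and the length less 1 in 268. Of the 48 members, 19 share their locus with another row. Strandedness is not stated in the labels used here, so overlapping genes cannot be told apart. Protein sequences were not used here. Marker sums hold one row per symbol, the most abundant.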

Additional observations from a re-analysis of the deposited data

Results flagged for a closer look

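The following 7 members were at least 2-fold changed in one table and had the opposite sign in the other, with 1 library per group, so the difference between culture and tumours was not tested. Kpna2 was at least 2-fold changed in both, -1.16 in culture and 1.09 in the tumours. Nup43 (-2.70 and 0.08), Nup160 (-1.80 and 0.10) and Nup133 (-1.31 and 0.04) of the outer ring were lower in culture and near 0 in the tumours. Ipo13 (-1.89 and 0.22) and Ipo4 (-1.28 and 0.40) were lower in culture and above 0 in the tumours. Ranbp2 was at 1.22 in culture and -0.19 in the tumours.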

How the results depend on the processing

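Of the medians and counts over all members, 41 of 50 alternative values stayed within 1.5 times the reported one, and neither of the members' medians changed sign. Of the role medians in culture, those of the central channel, the cytoplasmic side and the exportins went from below to above 0 on centring (0.13, 0.04 and 0.15). Those of the importin alphas and the nuclear basket were above 0 already (0.34 and 0.04) and lay at 0.59 and 0.30 after centring. In culture the count at least 2-fold lower was 11 with a pseudocount of 5 FPKM, 11 after centring on the median of all genes and 11 with nucleoporins alone, fewer members by construction, and centring took the median to -0.34. In the tumours the count at least 2-fold lower was 0 with a pseudocount of 5 FPKM and 0 at a minimum of 5 FPKM, and the count called lower was 1 at that minimum, since Nup210 lies under it. With nucleoporins alone the tumour counts were 1 called lower and 0 at least 2-fold higher. Among single genes, centring left Kpna2, Nup93, Nup205, Ipo8, Ipo11 and Nup107 under 2-fold in culture (-0.76 to -0.96), and no member past 2-fold changed sign. A pseudocount of 5 FPKM left Nup210, Nup93, Nup205, Nup133, Ipo8 and Nup107 under 2-fold in culture (-0.65 to -0.92), with Nup133 at -0.79. It did the same for Nup210 in the tumours (-0.57). No paired analysis was possible because each group has 1 library. Low levels limit Nup210, whose treated values lie under 1 FPKM in both tables.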
